A study of Mus musculus with 21 samples.

Results

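The mitosis and G2/M phase genes described here are 42 genes chosen by symbol, with no threshold on a measured value, for products that act between the end of DNA replication and cell division. All 42 were found in each of the 3 deposited expression tables, which together list 16779 genes. They were followed in 21 RNA sequencing libraries from 2 established mouse acute myeloid leukaemia cell lines. NUP98-NSD1 cells carry a flag-tagged fusion that joins NUP98, a nucleoporin, to NSD1, which methylates histone H3, and were given DMSO or 3 µM of UNC1999 or JQEZ5, inhibitors of the histone methyltransferase complex PRC2, for 4 days, with 3 libraries each. In separate NUP98-NSD1 cultures, pLKO.1-puro lentivirus delivered an shRNA against Kdm5b (shKdm5b) or no insert (shEV), with puromycin selection in both arms and 3 libraries each. MLL-AF9 cells express an oncogenic MLL fusion instead. They carried MSCV-neo retrovirus with no insert (EV), wild-type Kdm5b (WT) or a mutant without demethylase activity (H499A), with 2 libraries each. KDM5B removes methyl groups from lysine 4 of histone H3, and PRC2 methylates lysine 27. Each genetic arm is a vector-transduced culture of an established line rather than a mutant animal, and the labels do not say how many shRNA sequences were used or whether replicates were separate cultures. The p-values may therefore measure technical spread only.

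Entry into mitosis is driven by CDK1 bound to B-type cyclins. PLK1 and the Aurora kinases then mature the centrosomes and spindle, kinetochores join chromosomes to microtubules, and the spindle checkpoint holds the anaphase-promoting complex in check until every chromosome is attached. Many of these genes are transcribed in a late wave of the cell cycle, in which FOXM1, B-MYB and the MuvB core act at a promoter element called the cell cycle genes homology region (CHR), often placed downstream of CCAAT boxes bound by NF-Y. In rapidly dividing leukaemia cells the wave is prominent, and it is lost as myeloid cells leave the cycle. In RNA from a whole culture, fewer cells in G2 and M phase and less of each RNA per cell cannot be told apart.

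Promoter windows from RefSeq (GRCm38.p6), running from 250 bases before to 50 bases after an annotated start, were held for 34 of the 42 genes, 36 windows in all. Aurkb, Ccna2, Cdc25c, Dlgap5, Incenp, Kif20a, Spc24 and Tpx2 had no entry. The 5 windows below are shown because their genes cover some of the roles discussed. The genes encode a checkpoint protein, the spindle pole kinase, a master mitotic kinase, a B-type cyclin and the topoisomerase that untangles chromosomes. Capitals mark TTTGAA (the main CHR sequence searched) and CCAAT in either orientation, so TTCAAA and ATTGG are the same motifs on the other strand. Every window is written 5′ to 3′ on its gene's own strand. They lie at chr2:118597961-118598260 on the plus strand (Bub1b), chr2:172370521-172370820 on the minus strand (Aurka), chr7:122159185-122159484 on the plus strand (Plk1), chr9:70421505-70421804 on the minus strand (Ccnb2) and chr11:99024140-99024439 on the minus strand (Top2a).
Bub1b: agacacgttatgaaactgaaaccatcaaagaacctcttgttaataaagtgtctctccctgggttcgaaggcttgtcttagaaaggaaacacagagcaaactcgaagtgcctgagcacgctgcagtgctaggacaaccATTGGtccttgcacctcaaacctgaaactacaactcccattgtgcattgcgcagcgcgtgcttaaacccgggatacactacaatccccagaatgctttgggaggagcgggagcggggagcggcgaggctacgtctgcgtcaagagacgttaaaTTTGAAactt
Aurka: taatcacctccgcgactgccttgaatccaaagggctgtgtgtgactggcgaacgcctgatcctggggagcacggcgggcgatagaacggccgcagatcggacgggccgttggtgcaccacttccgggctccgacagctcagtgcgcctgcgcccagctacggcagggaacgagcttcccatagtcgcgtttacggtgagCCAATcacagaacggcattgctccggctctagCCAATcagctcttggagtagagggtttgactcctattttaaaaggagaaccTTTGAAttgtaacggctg
Plk1: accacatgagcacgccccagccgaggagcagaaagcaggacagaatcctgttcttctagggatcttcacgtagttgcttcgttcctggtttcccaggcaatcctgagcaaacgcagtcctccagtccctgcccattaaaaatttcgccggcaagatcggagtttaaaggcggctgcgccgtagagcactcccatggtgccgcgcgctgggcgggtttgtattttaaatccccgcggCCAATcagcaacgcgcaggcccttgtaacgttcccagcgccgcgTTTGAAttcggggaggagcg
Ccnb2: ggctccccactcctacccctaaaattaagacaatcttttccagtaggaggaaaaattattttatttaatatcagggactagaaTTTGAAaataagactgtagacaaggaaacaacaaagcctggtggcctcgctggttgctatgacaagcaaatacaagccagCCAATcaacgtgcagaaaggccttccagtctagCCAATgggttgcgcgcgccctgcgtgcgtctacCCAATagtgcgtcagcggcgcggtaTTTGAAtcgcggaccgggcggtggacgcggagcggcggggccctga
Top2a: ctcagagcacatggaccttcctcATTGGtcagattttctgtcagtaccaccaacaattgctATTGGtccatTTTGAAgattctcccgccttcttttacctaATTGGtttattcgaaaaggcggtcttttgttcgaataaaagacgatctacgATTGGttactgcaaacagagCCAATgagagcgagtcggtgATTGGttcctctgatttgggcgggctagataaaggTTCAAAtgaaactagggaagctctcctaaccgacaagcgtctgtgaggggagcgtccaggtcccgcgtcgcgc

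TTTGAA, searched on both strands, was present in 28 of the 36 windows, which is 77.8%, against 17.9% of all 32851 windows of the same length. In the windows of 100 other mitosis promoters the share was 43%, and in 41 windows of S phase genes it was 9.76%. CCAAT was present in 75% of the mitotic gene windows and in 37.4% of all windows. Both motifs stood together in 63.9% of the mitotic gene windows and in 6.95% of all windows. Every window printed above holds both, so those shown do not represent the rest. Ect2 and Prc1 each had 2 overlapping windows, so the 38 matches are 35 separate ones, and by gene TTTGAA was present in 26 of 34 (76.5%). The 32 genes with 1 window held 32 matches, with a median position of 2 bases from the annotated start. Some of these genes held no match and others more than 1. Bub1, Ccnb1, Cdc25b, Cenpe, Birc5, Mad2l1, Nuf2 and Nusap1 were the 8 genes with a window but without these 6 letters in it. Among them, Bub1 and Cdc25b held TTCGAA, a similar sequence that was also searched. It was present in 11.1% of the mitotic gene windows and in 1.56% of all windows. A match is a stretch of letters and not a measured binding site.

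Inhibitor libraries held 12.8 to 18.9 M read counts each, knockdown libraries 21.3 to 34.8 M and overexpression libraries 17.3 to 20.0 M. Levels below are normalised read counts, obtained by undoing the deposited variance-stabilised values. A mitotic gene had 45 to 8682 reads in an inhibitor library (median 1069), 519 to 24554 in a knockdown library (median 3653.5) and 272 to 18067 in an overexpression library (median 2069.5). Differences and their standard errors are on the deposited log2 scale, which compresses low counts, and a gene was called at an adjusted p under 0.05 in a limma fit of all tested genes. Kdm5b itself (chr1:134560171-134635285) was at 28.7 ± 5.44 (SD, n = 3) with shKdm5b and 74.5 ± 17.8 with shEV, below the level at which genes were tested, and in a fit of all genes its adjusted p was 0.00401. MLL-AF9 cells had 121 ± 9.89 Kdm5b counts with EV (SD, n = 2), 1413 ± 4.48 with WT and 294 ± 21.5 with H499A, so RNA of the mutant stood at a lower level than that of the wild type. Of 17 myeloid markers, 15 or 16 were above 100 normalised counts in every group, with Mpo at or near the top. Among 36 markers of erythroid, megakaryocyte, B, T and NK, and stromal and endothelial cells, only Cd79b and Pecam1 passed 100 counts in any group, and the haemoglobin genes, Cd3e and the collagens Col1a1, Col1a2 and Col3a1 had no row in the tables used here.

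**Figure D1:**
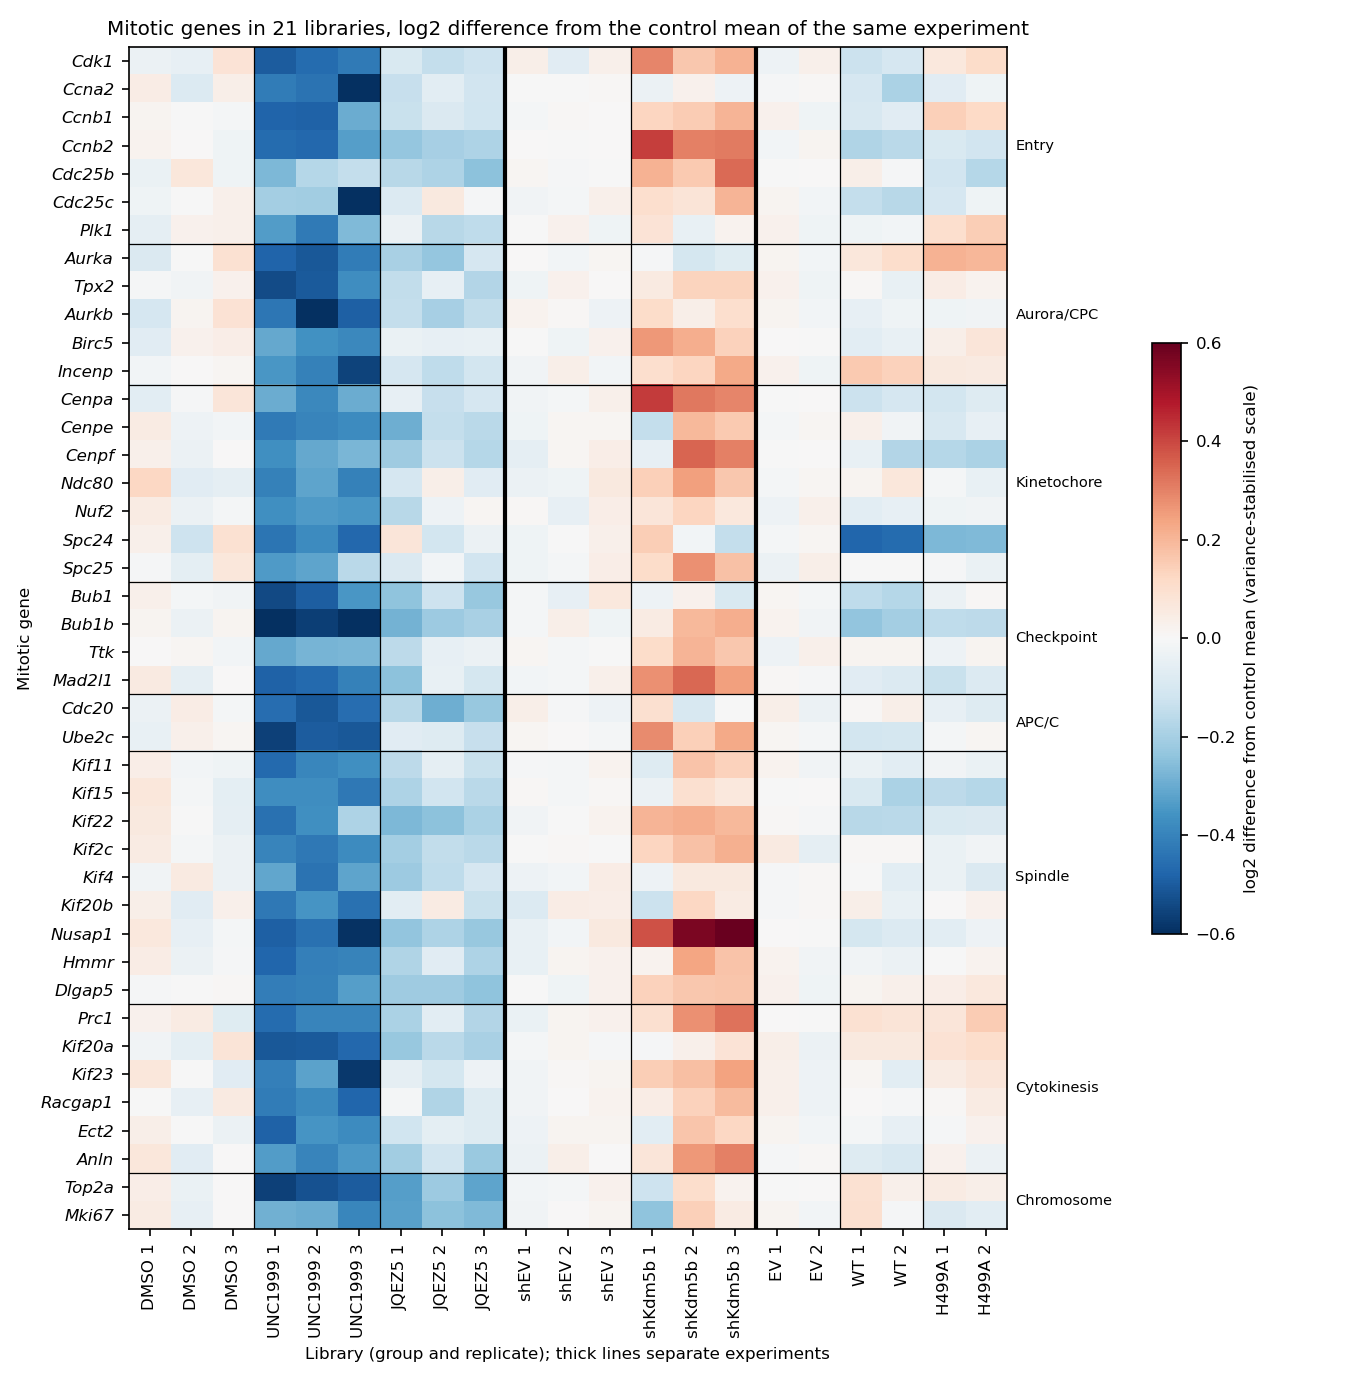
Each column is a library and each row a mitotic gene, grouped by role. Colour gives the log2 difference from the control mean of the same experiment on the variance-stabilised scale. UNC1999 libraries are blue in every row, JQEZ5 libraries are paler, shKdm5b libraries are mostly red, and in MLL-AF9 cells colours differ between genes.

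Levels of different genes are set side by side only per kilobase of exon, counting all annotated exons of a gene. Which transcripts the cells used was not measured, so the order also depends on the annotation. With DMSO, Ccnb2 was highest at 938 ± 18.3 normalised counts per kilobase of exon (SD, n = 3), and Top2a followed at 925 ± 26.5, a gap smaller than the SD of Top2a. The next were Cdc20 at 602 ± 20.8, Mki67 at 586 ± 20.8 and Bub1b at 564 ± 13.2, and Cdc25c was lowest at 31.2 ± 1.22. With shEV the order was led by Cdc20 at 2618 ± 61.7, Top2a at 2327 ± 39.3 and Ccnb2 at 2179 ± 5.4. With EV in MLL-AF9 cells it was led by Top2a at 1799 ± 3.86 and Ccnb2 at 1611 ± 31.3 (SD, n = 2). Cdc25c, a phosphatase that activates CDK1, was the lowest of the 42 in all 3 control groups. The tables were normalised separately, so these levels do not compare the experiments. Gene spans follow GENCODE M21 on GRCm38. The genes lie on 17 chromosomes, with 8 on chromosome 2, 6 on chromosome 9 and 4 each on chromosomes 7 and 11.

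All 42 mitotic genes fell in NUP98-NSD1 cells given UNC1999. Each was called lower against DMSO, where 24% of all tested genes were called lower, and in each the 3 UNC1999 libraries lay below the 3 DMSO libraries, which held for 28.1% of all tested genes (26.9% lay wholly above). No mitotic gene was called higher by limma or by voom, and none at an unadjusted p under 0.05 (0 of 42), where 23.9% of all genes were called higher. The median ratio of UNC1999 to DMSO was 0.704 and the ratios ran from 0.581 to 0.815. The median log2 difference was -0.41, beside -0.01 over all genes tested. All 42 calls also held without any 1 library of the comparison. The 42 genes together took 0.278% to 0.286% of a UNC1999 library and 0.409% to 0.422% of a DMSO library.

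Among the drivers of entry, all 7 genes fell. Ccna2 (chr3:36564865-36572150) encodes cyclin A2, which works with CDKs in S phase and G2. It was at 2338, 2126 and 2324 normalised counts in the DMSO libraries, 2032, 2153 and 2073 with JQEZ5 and 1632, 1602 and 1337 with UNC1999. The third UNC1999 library was the lowest of the 9. The UNC1999 mean was 0.673 times the DMSO mean, with a log2 difference of -0.51 ± 0.06 (SE) and an adjusted p of 1.77e-06. Cdk1, the kinase itself, was at 1663, 1647 and 1823 with DMSO and 1147, 1181 and 1218 with UNC1999. The groups did not overlap, and the log2 difference was -0.46 ± 0.04 (adjusted p = 1.26e-07). Ccnb1 and Ccnb2, the B-type cyclins, were at 0.723 and 0.71 times their DMSO means, and Plk1 at 0.748 times. Cdc25b, a phosphatase that activates CDK1, had the smallest log2 difference of the 42, -0.20 ± 0.05 (adjusted p = 0.00491). Cdc25c, the least abundant of the 42, was at 148, 153 and 159.9 with DMSO and 113, 112 and 55.2 with UNC1999. The lowest value, from 45 reads, was that of the third UNC1999 library, which had the fewest read counts of the inhibitor libraries (12.8 M). Among the 42 genes that library was the lowest of its group in 13 and the highest in 21.

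The 4 spindle checkpoint genes and the 2 partners of the anaphase-promoting complex fell as well. Bub1b (chr2:118598211-118641591) encodes BUBR1, part of the inhibitor that restrains the complex. Its counts were 2442, 2345 and 2443 with DMSO, 1941, 2041 and 2080.2 with JQEZ5 and 1493, 1557 and 1429.8 with UNC1999, 3 sets that did not overlap. It had the largest log2 difference of the 42 under UNC1999, -0.62 ± 0.04, a ratio of 0.62 (adjusted p = 1.7e-09). Ube2c (chr2:164769898-164778822), the ubiquitin-conjugating enzyme that starts chains for the complex, was at 1206, 1281 and 1261 with DMSO and 779, 820.4 and 815 with UNC1999. Its JQEZ5 libraries, at 1181, 1174 and 1114, lay close under DMSO, and the UNC1999 ratio was 0.644 (adjusted p = 1.69e-08). Cdc20, the activator that the checkpoint holds back, was at 0.667 times its DMSO mean. Bub1, Mad2l1 and Ttk, the other checkpoint genes, were at 0.686, 0.7 and 0.745 times.

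Aurora kinase, kinetochore, spindle and cytokinesis genes moved the same way under UNC1999. Aurka, the spindle pole kinase, was at 949, 1018 and 1102 with DMSO and 672, 657 and 710.0 with UNC1999, without overlap (log2 difference -0.47 ± 0.05, adjusted p = 1.27e-06). Aurkb, the kinase of the chromosomal passenger complex, was at 0.66 times its DMSO mean, and its partners Incenp and Birc5 were at 0.709 and 0.744 times. Of the 7 kinetochore and centromere genes, Spc24, a subunit of the NDC80 complex, had the lowest ratio of all 42 genes at 0.581, from 277, 232 and 298 with DMSO to 154, 168 and 147 with UNC1999. Spc25, its partner, was at 0.772 times and Cenpa, the histone H3 variant of centromeres, at 0.772 times. Kif11, the motor that pushes spindle poles apart, was at 0.719 times and Nusap1, a microtubule-bundling protein, at 0.653 times. Prc1, which bundles midzone microtubules, was at 0.707 times its DMSO mean. Top2a, which decatenates sister chromatids, was at 8568, 8092 and 8353 with DMSO, 6573, 7140.1 and 6653 with JQEZ5 and 5574, 5739 and 5826 with UNC1999. Its UNC1999 log2 difference was -0.53 ± 0.03 (adjusted p = 4.28e-09), and that of the proliferation marker Mki67 was -0.32 ± 0.04.

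With JQEZ5, 23 of the 42 genes were called lower, where 10.5% of all tested genes were called lower and 13.1% higher. By limma 0 were called higher, 0 at an unadjusted p under 0.05 and 0 by voom. The other 19 did not pass. All 42 log2 differences were below zero, with a median of -0.14 beside 0.01 over all genes tested, and the median ratio was 0.897. In 28 genes every JQEZ5 library lay below every DMSO library, against 19.5% of all tested genes (22.1% lay wholly above). The calls of 14 genes held without any 1 library. The 42 genes took 0.349% to 0.365% of a JQEZ5 library, between the ranges for DMSO and UNC1999.

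**Figure D2:**
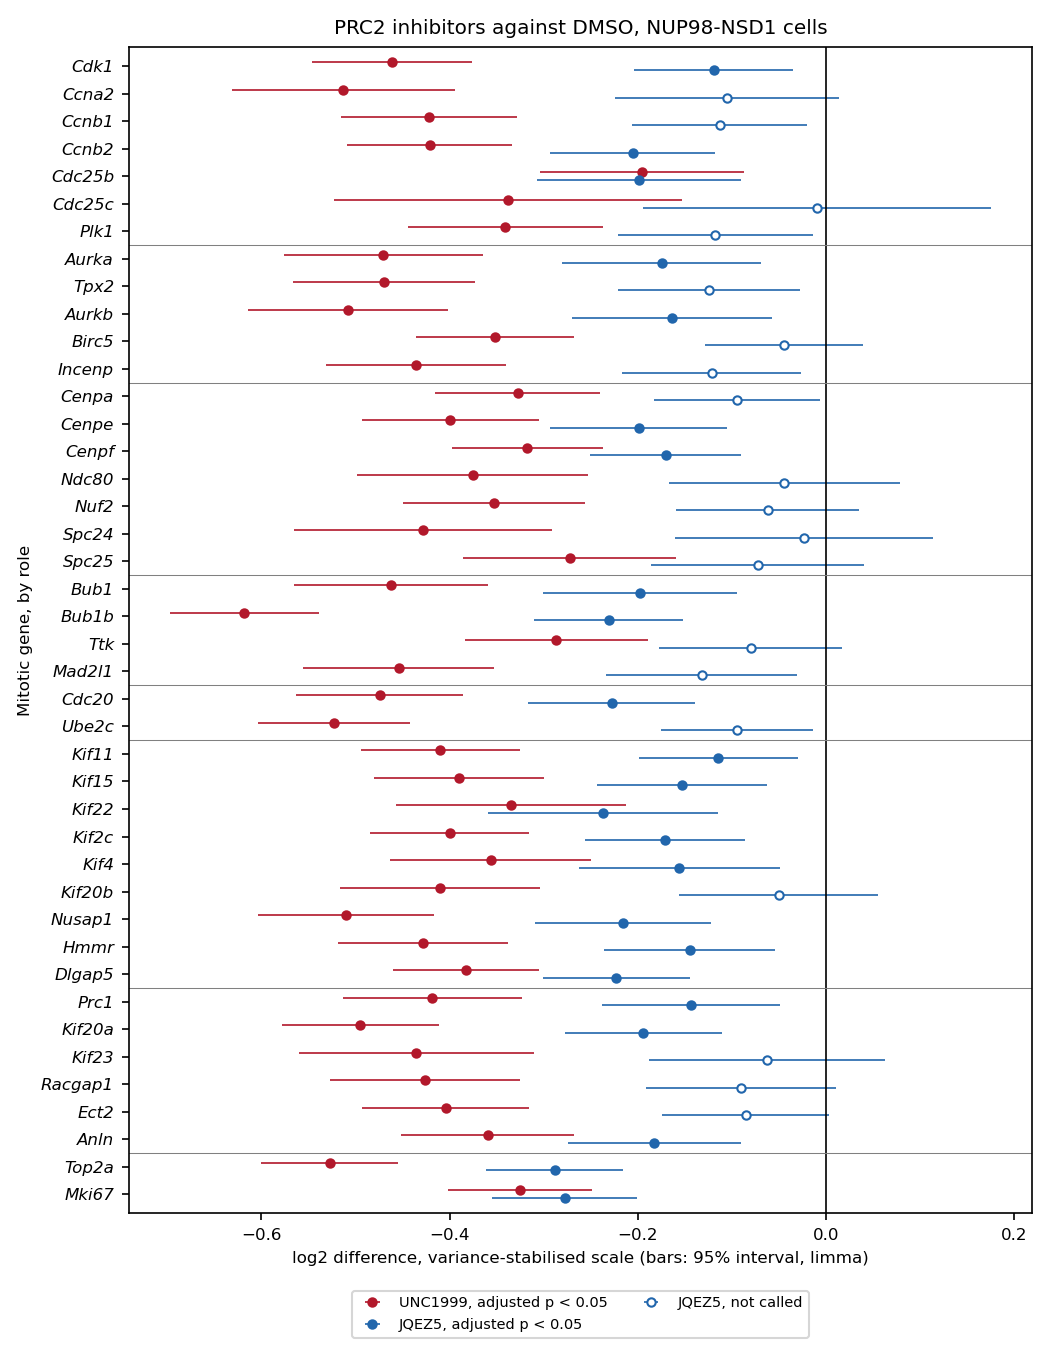
Points give the log2 difference of each mitotic gene from DMSO on the variance-stabilised scale with its 95% interval from limma, for UNC1999 and JQEZ5, in role order. Filled points passed an adjusted p of 0.05. All 42 UNC1999 points are filled and lie between -0.62 and -0.20, while the JQEZ5 points lie between -0.29 and -0.01 with 23 filled.

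By role, 8 of 9 spindle genes and both chromosome genes were called lower with JQEZ5, beside 3 of 6 cytokinesis genes, 2 of 4 checkpoint genes, 1 of 2 partners of the anaphase-promoting complex, 3 of 7 entry genes, 2 of 5 Aurora and passenger genes and 2 of 7 kinetochore genes. Top2a had the largest log2 difference under JQEZ5, -0.29 ± 0.03 (adjusted p = 1.36e-05), a ratio of 0.814. Mki67 was at 6101, 5683 and 5905 with DMSO, 4659, 4937 and 4872 with JQEZ5 and 4786, 4758 and 4440.1 with UNC1999. The DMSO libraries stood above the other 6, and JQEZ5 and UNC1999 libraries overlapped (JQEZ5 against DMSO -0.28 ± 0.04, adjusted p = 3.33e-05). Kif22, a motor that moves chromosome arms, was at 890.2, 845 and 806 with DMSO and 666, 681 and 715 with JQEZ5, without overlap, a ratio of 0.811 (adjusted p = 0.00691). Bub1b was at 0.839 times its DMSO mean (adjusted p = 0.000274), Cdc20 at 0.827 times (0.00084) and Ccnb2 at 0.847 times (0.00175). Cdk1 was close to the threshold, with a log2 difference of -0.12 ± 0.04 (adjusted p = 0.0401), as were Kif11 at -0.11 ± 0.04 (0.0474) and Aurka at -0.17 ± 0.05 (0.0184). Plk1, Ccnb1 and Cenpa did not pass, with log2 differences of -0.12 (95% interval -0.22 to -0.01), -0.11 (-0.21 to -0.02) and -0.09 (-0.18 to -0.01). Cdc25c had the smallest difference, -0.01 (-0.19 to 0.18).

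Compared directly at the same dose and time, UNC1999 libraries were lower than JQEZ5 libraries in 39 of the 42 genes, where 17.7% of all tested genes were called lower and 18.7% higher. By limma 0 were called higher, 0 at an unadjusted p under 0.05 and 0 by voom. The libraries of 39 genes lay wholly below those of JQEZ5, which held for 22.1% of all tested genes (23.1% lay wholly above). The median log2 difference was -0.29 and the median ratio 0.785. On the deposited log2 scale Ube2c differed most, at 0.696 times the JQEZ5 mean (log2 difference -0.43 ± 0.04, adjusted p = 5.74e-07). By ratio Spc24 was lowest, at 0.598 times (adjusted p = 0.000166), with Ccna2 at 0.73 times (4.17e-05) and Bub1b at 0.739 times (1.23e-06). Cdk1, Aurkb and Kif20b were lower by -0.34, -0.34 and -0.36 log2 units. Only Cdc25b, Kif22 and Mki67 did not pass. Their log2 differences between the inhibitors were 0.00 (95% interval -0.11 to 0.11), -0.10 (-0.22 to 0.02) and -0.05 (-0.12 to 0.03). UNC1999 and JQEZ5 share their DMSO libraries in the comparisons above. The direct differences do not use DMSO levels, but the DMSO libraries add to the shared spread behind the intervals and calls.

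Other cell cycle genes were called lower as well. Of 100 other mitosis genes, 84 were called lower with UNC1999, led by Cdca3 (adjusted p = 3.63e-08), the centromere chaperone Hjurp (5.81e-08), the centrosomal kinase Nek2 (5.81e-08) and the passenger complex subunit Cdca8 (6.37e-08), at 0.686, 0.768, 0.655 and 0.648 times their DMSO means. With JQEZ5 it was 36, and 64 did not pass. Of 45 S phase genes, 44 (97.8%) were called lower with UNC1999 and 18 (40%) with JQEZ5, where 24% and 10.5% of all tested genes were called lower, and the replicative helicase subunit Mcm3 stood at 0.68 and 0.892 times DMSO. The median log2 differences under UNC1999 were -0.31 for the other mitosis genes and -0.36 for the S phase genes. Among 30 regulators of the G2/M programme 15 (50%) were called lower and 2 (6.67%) higher with UNC1999, beside 24% and 23.9% of all tested genes. With JQEZ5 it was 7 (23.3%) lower and 2 (6.67%) higher, beside 10.5% and 13.1% of all tested genes. Foxm1, which drives late cell cycle transcription, was at 1376 ± 36.6 with DMSO, 1239.6 ± 24.8 with JQEZ5 and 1017 ± 13.8 with UNC1999 (SD, n = 3), lower with both inhibitors (adjusted p = 0.0135 and 3.54e-07). Mybl2, which encodes B-MYB, was at 0.69 times DMSO with UNC1999 (1.08e-07), and at 0.933 times with JQEZ5, which did not pass (0.123). Cdkn1a, which encodes the CDK inhibitor p21, was at 1.19 times DMSO with UNC1999 (0.000183) and 1.04 times with JQEZ5 (0.348, not called), and Cdkn2c (p18) at 0.827 times with UNC1999 (0.0101) and 0.905 times with JQEZ5 (0.216, not called). Kdm5b was at 1.46 times DMSO with UNC1999 (1.65e-07) and 1.08 times with JQEZ5 (0.112, not called). Summed counts of the 16 myeloid markers in the table ran from 226410.0 to 230797 with DMSO, from 288737 to 295942 with JQEZ5 and from 294904 to 308935 with UNC1999. Much of the rise in the sum was Lyz2, from a mean of 61844 with DMSO to 152067 with UNC1999, while Mpo went from 68391 to 45754. Of the 15 myeloid markers tested, 6 were called lower and 6 higher with UNC1999 (median log2 difference 0.02), and 3 and 6 with JQEZ5, and their part in the result was not tested. The B lineage marker Cd79b ran from 187 to 206 with DMSO and from 64.1 to 99.3 with the inhibitors. Pecam1, an endothelial marker also found on myeloid cells, ran from 1242 to 1356 with DMSO, from 938 to 1048 with JQEZ5 and from 828 to 861 with UNC1999, called lower with both. The part of either in the result was not tested.

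With Kdm5b knockdown, part of the mitotic programme rose. Of the 42 genes 19 were called higher with shKdm5b, where 15% of all tested genes were called higher and 17.4% lower. By limma 0 were called lower, 0 at an unadjusted p under 0.05 and 0 by voom, and 23 did not pass. The median ratio was 1.12, the median log2 difference 0.15 beside -0.01 over all genes tested, and 36 of the 42 differences were above zero. In 25 genes every shKdm5b library stood above every shEV library, against 22.5% of all tested genes (26.5% lay wholly below). The 42 genes took 0.627% to 0.640% of a shEV library and 0.657% to 0.719% of a shKdm5b library. Limma's count of genes called higher moved with single libraries. It was 9, 8 and 11 without shEV replicates 1, 2 and 3, and 29 without shKdm5b replicate 1, where 1 gene, Aurka, was called lower.

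Nusap1 (chr2:119618298-119651244) rose most with shKdm5b. Its counts were 2353, 2404 and 2543 with shEV and 3264, 3760.5 and 3837 with shKdm5b, so the knockdown libraries were all higher and replicate 1 was the lowest of them. The ratio was 1.49 and the log2 difference 0.51 ± 0.06 (SE, adjusted p = 0.000434). Ccnb2 (chr9:70407692-70421547) was at 3341, 3327 and 3341 with shEV and 4554, 4195 and 4228 with shKdm5b. There was no overlap, and the log2 difference was 0.34 ± 0.04 (adjusted p = 0.000569). Cenpa (chr5:30666777-30674830) was at 5805, 5834 and 6020.3 with shEV and 7994, 7402 and 7286 with shKdm5b. Here replicate 1 was the highest of the knockdown libraries, and the log2 difference was 0.34 ± 0.05 (adjusted p = 0.00085). Mad2l1, the checkpoint protein that captures CDC20, was at 6133, 6145 and 6349 with shEV and 7588, 7975 and 7418 with shKdm5b, also without overlap, with a log2 difference of 0.29 ± 0.04 (adjusted p = 0.00139). Nusap1, Ccnb2, Cenpa and Mad2l1, with Cdc25b, Ube2c and Kif22, were the 7 genes whose call held without any 1 library.

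By role, 4 of 7 entry genes, 2 of 5 Aurora and passenger genes, 3 of 7 kinetochore genes, 2 of 4 checkpoint genes, 1 of 2 partners of the anaphase-promoting complex, 4 of 9 spindle genes and 3 of 6 cytokinesis genes were called higher with shKdm5b. Cdk1 was at 4829, 4475 and 4806 with shEV and 5834, 5293 and 5483 with shKdm5b, without overlap (log2 difference 0.22 ± 0.05, adjusted p = 0.0105). Ccnb1 was at 1.12 times the shEV mean (0.0164), Birc5, the survivin gene of the passenger complex, at 1.17 times (0.00833), Ube2c at 1.18 times (0.00727) and Prc1 at 1.2 times (0.0182). Plk1, Aurka, Aurkb, Cdc20, Kif11, Top2a and Mki67 were among the 23 that did not pass. Plk1 had a log2 difference of 0.02 (95% interval -0.08 to 0.12), Aurka -0.06 (-0.16 to 0.03) and Aurkb 0.08 (-0.01 to 0.17). Cdc20 was at -0.00 (-0.12 to 0.12) and Kif11 at 0.08 (-0.07 to 0.22). Top2a was at 20754, 20779 and 21379 with shEV and 19221, 22556 and 21275 with shKdm5b, where the knockdown libraries fell on both sides of the controls. Mki67 was at 17821, 18106 and 18320.5 with shEV and 15251, 19983 and 18700.0 with shKdm5b, with replicate 1 below and the others above the control mean. The 95% intervals for Top2a and Mki67 were -0.14 to 0.14 and -0.21 to 0.18.

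**Figure D3:**
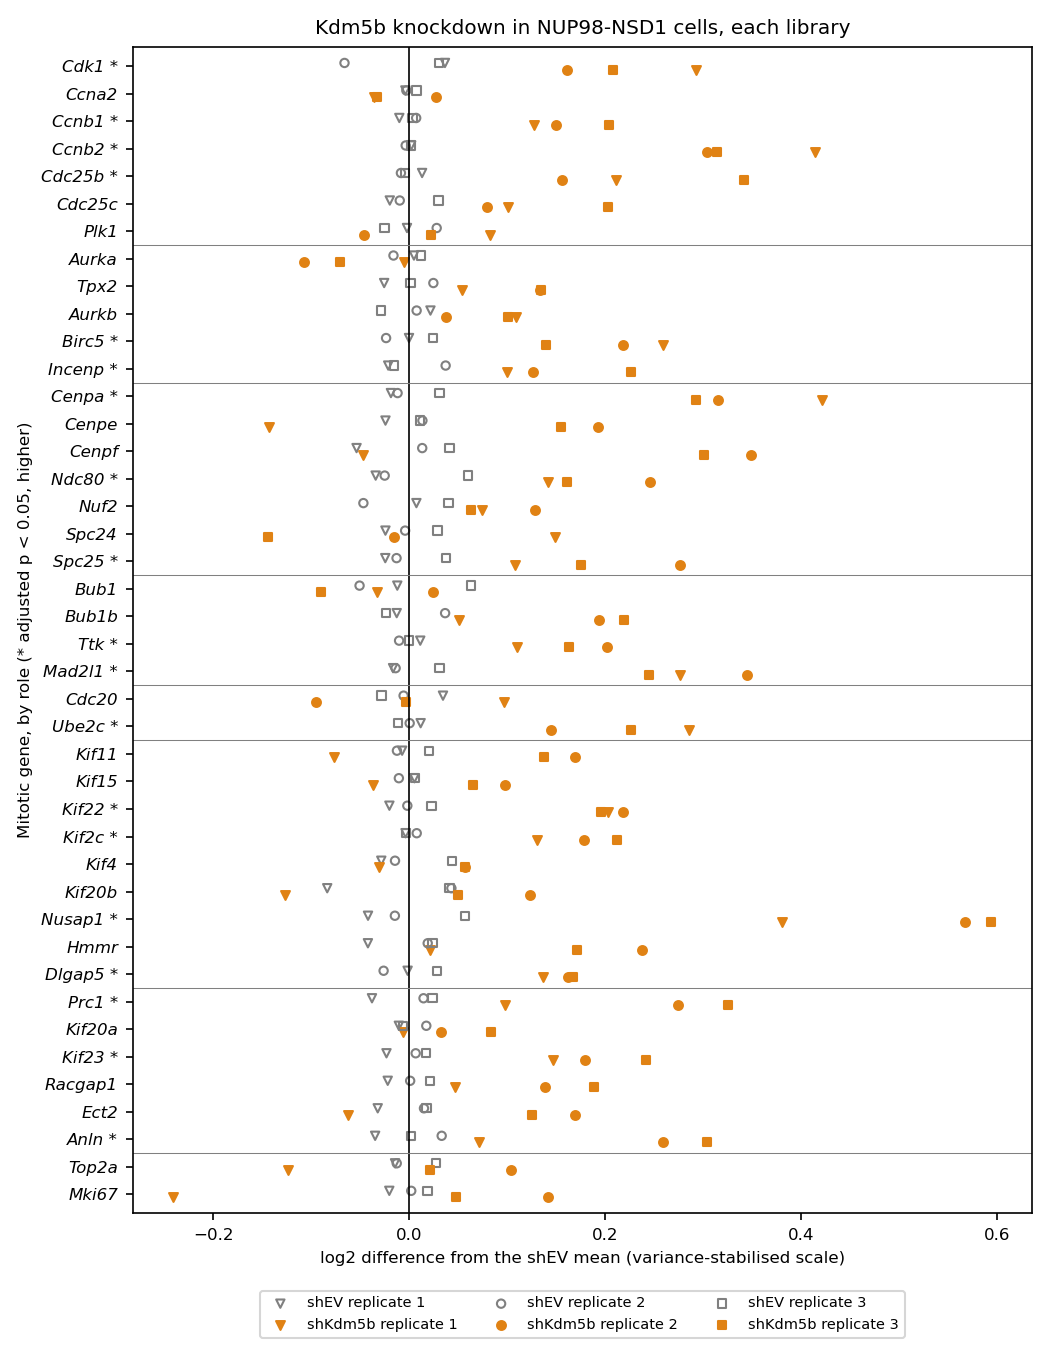
Each point is a knockdown-experiment library, placed by its log2 difference from the shEV mean on the variance-stabilised scale, with a marker shape per replicate, and genes in role order. Asterisks mark the 19 genes called higher. The downward triangles of shKdm5b replicate 1 are the lowest of their group in 26 of the 42 genes, Mki67 and Cenpf among them.

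The library shKdm5b replicate 1 stood apart from its group in these genes. It was the lowest of the 3 in 26 of the 42, and its log2 difference from the other shKdm5b libraries was lower for longer genes, with a Spearman rho of -0.65 with exonic length across the 42 genes, which share that library and are not independent. The median difference was -0.15 over the 20 genes with exons longer than 4919 bases and -0.04 over the other 22. The part of transcript length in the knockdown result was not tested, and the fit without this library gave the 29 calls above.

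The rest of the programme moved less evenly with shKdm5b. Of 100 other mitosis genes 25 were called higher and 6 lower, beside 15% and 17.4% of all tested genes, with the spindle and midbody genes Ckap2l and Cep55 at 1.32 and 1.35 times shEV (adjusted p = 0.000469 and 0.000695). Zwint, a kinetochore protein, and Espl1, the separase gene, were at 0.638 and 0.788 times (2.25e-05 and 0.00126). Of 45 S phase genes 3 (6.67%) were called higher and 11 (24.4%) lower, with a median log2 difference of -0.04 beside 0.15 for the 42 mitotic genes. Cdc6, a replication licensing factor, was at 0.699 times shEV (0.000186), and Ccne2, a G1/S cyclin, at 1.4 times (0.00146). Among the 30 regulators 5 (16.7%) were called higher, near the share of all genes, and 2 (6.67%) lower. Foxm1 was at 4938 ± 64.4 with shEV and 5589 ± 245 with shKdm5b (SD, n = 3, adjusted p = 0.0192), while Mybl2 was at 0.915 times shEV and did not pass (0.122). Cdkn2c rose to 1.41 times (0.000181) and Cdkn1a to 1.26 times (0.00265). Wee1, the kinase that inhibits CDK1, was at 0.742 times (0.0012). Summed counts of the 17 myeloid markers ran from 417918 to 426373 with shEV and from 386844 to 452832 with shKdm5b, a sum made up mostly of Mpo (mean 287280 with shEV). Of the 15 tested, 5 were called higher and 4 lower, and Elane went from a mean of 15801 to 30534. Cd79b ran from 294 to 365 with shEV and from 60.7 to 76.2 with shKdm5b, and the part of these markers in the result was not tested.

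Across the 3 NUP98-NSD1 comparisons, 9 of the 42 genes were called lower with UNC1999, lower with JQEZ5 and higher with shKdm5b. A further 14 were called lower with both inhibitors and not called with shKdm5b, and 10 were called lower with UNC1999 alone among the inhibitors and higher with shKdm5b. The remaining 9 were called lower with UNC1999 and not called in the other comparisons. Taken singly, 24% of all tested genes were called lower with UNC1999, 10.5% lower with JQEZ5 and 15% higher with shKdm5b. The share of all genes with each joint pattern was not worked out, so these counts only describe the members. The inhibitor and knockdown experiments share no library. Over the 42 genes the signed log2 differences with UNC1999, all below zero, and with shKdm5b had a Pearson r of 0.13 and a Spearman rho of 0.22, given as a description over genes that share libraries.

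In MLL-AF9 cells mitotic genes moved in both directions. With wild-type Kdm5b, 16 of the 42 (38.1%) were called lower and 4 (9.52%) higher against EV, where 32.4% of all tested genes were called lower and 29.8% higher, and 22 did not pass. The share called lower was near the background and the share called higher under it. In 21 genes both WT libraries lay below both EV libraries and in 6 above, against 41.3% and 38.1% of all tested genes. The median log2 difference was -0.03 beside -0.01 over all genes tested, and the median ratio was 0.971. The 42 genes took 0.615% to 0.624% of an EV library, 0.610% to 0.620% of a WT library and 0.614% to 0.619% of an H499A library, ranges that overlap. The calls of 12 genes held without any 1 library. The number called higher was 1 without EV replicate 2 and 2 without WT replicate 1.

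Spc24 (chr9:21755442-21760303) fell most with WT. Its counts were 1137 and 1166 with EV, 876 and 878 with H499A and 699 and 711 with WT, and the 3 groups were separate. The WT ratio to EV was 0.612, with a log2 difference of -0.47 ± 0.03 (SE, adjusted p = 2.96e-12). Its partners in the NDC80 complex did not pass, with log2 differences of 0.04 for Ndc80 (95% interval -0.03 to 0.11), -0.06 for Nuf2 (-0.12 to 0.01) and -0.00 for Spc25 (-0.07 to 0.07). Bub1b had 4754 and 4591 counts with EV, 4155 and 4141 with H499A and 3885 and 3984 with WT. The 3 groups were again separate with EV highest, and the WT log2 difference was -0.22 ± 0.03 (adjusted p = 4.07e-08). Ccnb2 and Kif22 were at 0.864 and 0.862 times their EV means (7.86e-06 and 3.29e-05). Cdk1 and Ccnb1, the pair that drives entry, were at 0.907 and 0.936 times EV (0.00118 and 0.0088), and Cenpa at 0.908 times (0.000695).

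The 4 genes called higher with WT were Incenp, Aurka, Prc1 and Top2a. Incenp (chr19:9872296-9899551), the scaffold of the passenger complex, was at 3718 and 3556 with EV and 4110.2 and 4058 with WT, without overlap. Its ratio was 1.12 (log2 difference 0.15 ± 0.03, adjusted p = 2.64e-05). Aurka, Prc1 and Top2a had smaller differences, 0.09 ± 0.03 (0.0168), 0.09 ± 0.03 (0.0183) and 0.06 ± 0.02 (0.0226). Of the 4, the call of Incenp held without any 1 library. Plk1, Cdc20, Kif11 and Mki67 did not pass with WT, with 95% intervals of -0.08 to 0.04, -0.04 to 0.08, -0.11 to 0.00 and -0.01 to 0.10.

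With the demethylase-dead H499A mutant, 11 of the 42 genes (26.2%) were called lower and 6 (14.3%) higher against EV, where 26.9% of all tested genes were called lower and 22.7% higher, and 25 did not pass. The share called lower was near the background. In 18 genes both H499A libraries lay below both EV libraries and in 11 above, against 40.9% and 34.1% of all tested genes. The median log2 difference was -0.02 beside -0.01 over all genes tested. The WT and H499A comparisons share their EV libraries, so they are not independent. Spc24 fell most here too, at 0.761 times EV (log2 difference -0.27 ± 0.03, adjusted p = 1.62e-07). Cenpf, a large kinetochore protein, was at 0.853 times (5.87e-05), the spindle motor Kif15 at 0.874 times (4.66e-05) and Bub1b at 0.888 times (1.84e-05). Mki67 was at 0.948 times (0.0253). The 6 genes called higher were Aurka, Ccnb1, Plk1, Prc1, Kif20a and Cdk1. Aurka (chr2:172356190-172370535) had 1273 and 1232 counts with EV, 1337 and 1386 with WT and 1525 and 1514 with H499A, 3 separate groups, and its H499A ratio was 1.21 (log2 difference 0.21 ± 0.03, adjusted p = 3.88e-06). Plk1 had 1877 and 1799 counts with EV, 1794 and 1809 with WT and 2006 and 2088 with H499A. Only the H499A libraries stood clear of EV (0.12 ± 0.03, 0.00119). Prc1 was at 1.11 times EV (0.00385), and Kif20a, a cytokinesis motor, at 1.08 times (0.00528). Without H499A replicate 1 the number called lower was 6, and without H499A replicate 2 the number called higher was 3. The calls of 7 genes held without any 1 library: Ccnb1, Plk1, Aurka, Cenpf, Spc24, Bub1b and Kif15.

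**Figure D4:**
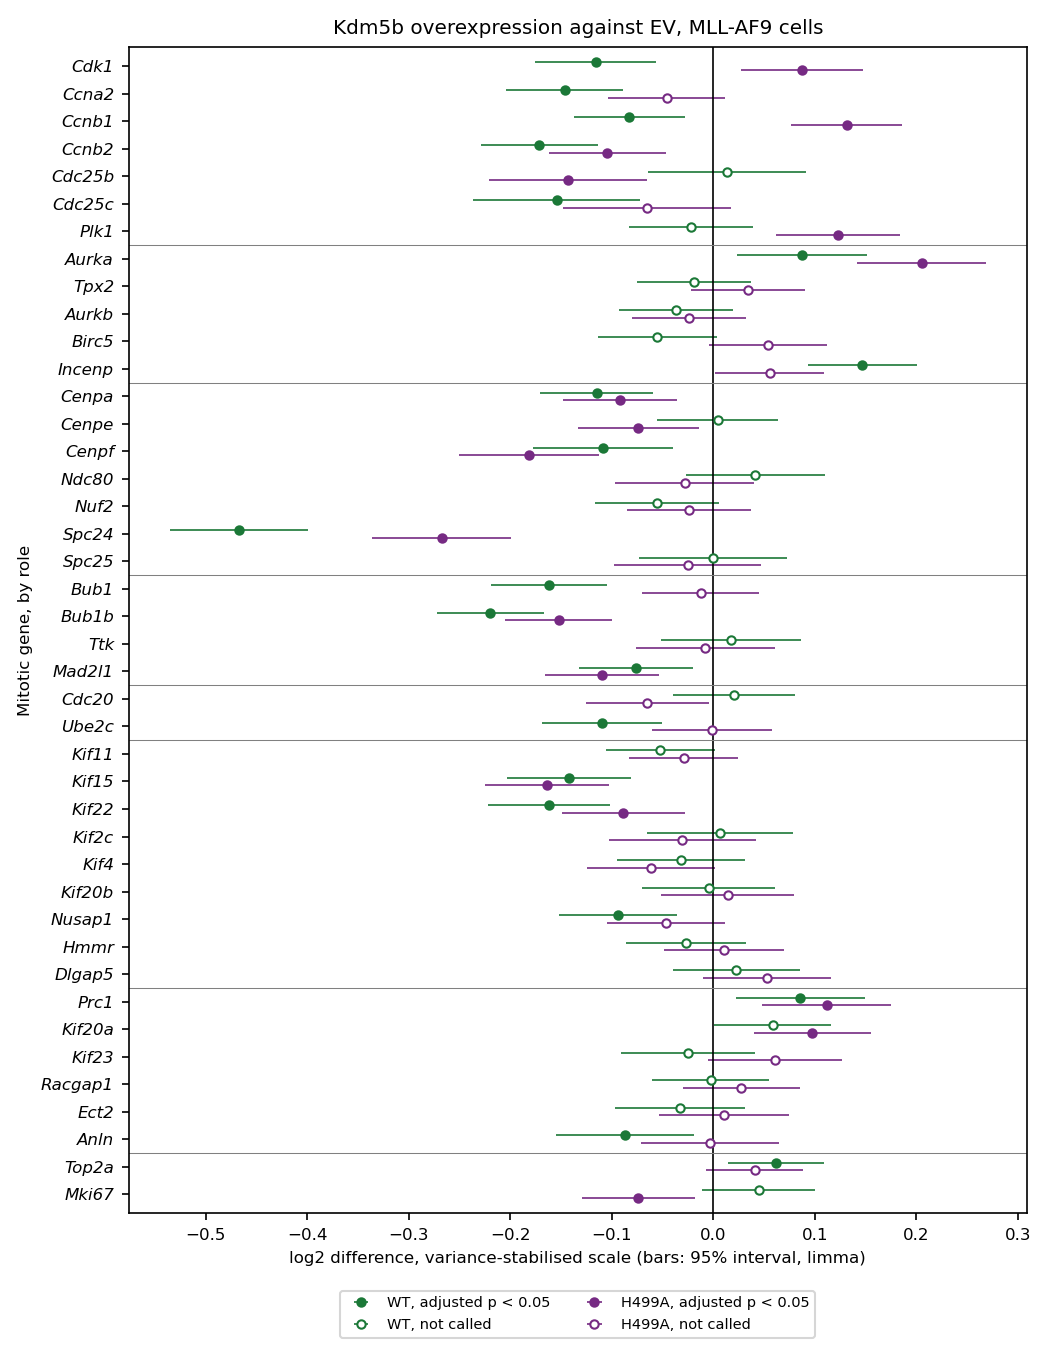
Points give the log2 difference of each mitotic gene from EV on the variance-stabilised scale with its 95% interval from limma, for WT and H499A, in role order. Filled points passed an adjusted p of 0.05. Spc24 lies farthest left for both, at -0.47 and -0.27, and Cdk1 and Ccnb1 are filled on opposite sides of zero.

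WT and H499A were compared directly with each other. These differences do not use EV levels, but the EV libraries add to the shared spread behind the standard errors and calls. WT was lower than H499A in 14 of the 42 genes (33.3%) and higher in 5 (11.9%), where 26.3% of all tested genes were called lower and 28.2% higher, and 23 did not pass. In 24 genes both WT libraries lay below both H499A libraries and in 9 above, against 36.2% and 39.6% of all tested genes. The median log2 difference was -0.03. Without H499A replicate 2 the number lower was 8. Ccnb1 had the largest difference on the deposited log2 scale, where low counts are compressed. Its counts were 3361 and 3438 with WT, 3705 and 3560.4 with EV and 4073 and 3989 with H499A, so EV lay between the others. The WT level was 0.843 times that of H499A, with a log2 difference of -0.21 ± 0.03 (adjusted p = 1.66e-07). Cdk1 had the same order, 2351 and 2408 with WT, 2553 and 2695 with EV and 2768 and 2872 with H499A, and differed by -0.20 ± 0.03 (adjusted p = 1.64e-06). Spc24 was at 0.804 times the H499A level (1.39e-05), Bub1 at 0.881 times (6.74e-05), Plk1 at 0.88 times (0.000194) and Aurka at 0.896 times (0.00225). Those called higher in WT than in H499A were Cdc25b at 1.23 times (0.00107), Mki67 at 1.09 times (0.000594), Incenp at 1.07 times (0.00455), Cdc20 at 1.08 times (0.0164) and Cenpe at 1.07 times (0.0245). Ccnb2, Spc24, Bub1b and Kif22 were called lower than the shared EV libraries with either construct and lower with WT than with H499A. No call was made in any of the 3 comparisons for 14 genes, Tpx2, Aurkb, Ndc80, Nuf2 and Kif11 among them. The share of all tested genes with no call in any of the 3 was not worked out. Since Kdm5b was higher with WT than with H499A, the level of the protein's RNA and the mutation cannot be told apart in this contrast.

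Most of the 45 S phase genes fell in MLL-AF9 cells with either construct. Of them, 39 were called lower and 1 higher with WT, 27 and 1 with H499A, and 28 and 4 in WT against H499A. The lower calls were 86.7%, 60% and 62.2% of the list, beside 32.4%, 26.9% and 26.3% of all tested genes, with median log2 differences of -0.21, -0.09 and -0.11. Rrm2, a subunit of ribonucleotide reductase, was at 0.653 times EV with WT (adjusted p = 7.26e-17), and Mcm3 at 0.755 times (5.27e-14). The S phase and mitotic lists were not tested against each other. Of 100 other mitosis genes 49 were called lower and 10 higher with WT, 30 and 8 with H499A, and 26 and 18 in WT against H499A. The 30 lower calls with H499A and the 26 in WT against H499A were near the background share. Of all tested genes 29.8%, 22.7% and 28.2% were called higher in the same order, and the higher calls of this list lay under those shares. Pbk, a mitotic kinase, was at 0.665 times EV with WT (1.67e-11), and Ccnf, a cyclin of G2, at 1.28 times with H499A (1.04e-07). Of 29 regulators tested 13 (44.8%) were called lower and 7 (24.1%) higher with WT, and 15 (51.7%) and 4 (13.8%) with H499A. In WT against H499A 6 (20.7%) were called lower and 10 (34.5%) higher, beside 26.3% and 28.2% of all tested genes. Foxm1 had 1499 ± 26.6 counts with EV, 1278 ± 58.9 with WT and 1345 ± 0.93 with H499A (SD, n = 2, adjusted p against EV 4.85e-05 and 0.00355). Mybl2 was at 0.832 times EV with WT (2.24e-07) and 0.761 times with H499A (3.47e-10). Cdkn1a was at 1.43 and 1.67 times EV (2.96e-09 and 2.61e-12), and Cdkn2c at 1.26 and 1.23 times (2.08e-09 and 2.88e-08). Summed counts of 17 myeloid markers ran from 141683 to 146861 with EV, from 155066 to 156394 with H499A and from 208442 to 213050.0 with WT, Cd79b from 317 to 329, from 666 to 678 and from 224 to 240 in the same order, and Pecam1 from 3790 to 3930, from 4574 to 4640 and from 5661 to 5758. Much of the myeloid sum was Mpo, at means of 82280 with EV, 81364 with H499A and 111560 with WT. Of the 15 myeloid markers tested, 5 (33.3%) were called lower and 10 (66.7%) higher with WT. With H499A it was 4 (26.7%) and 8 (53.3%). Of all tested genes, 32.4% and 26.9% were called lower and 29.8% and 22.7% higher. Elane was at means of 1345 with EV, 440 with H499A and 661 with WT. The part of these markers in the results was not tested.

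**Figure D5:**
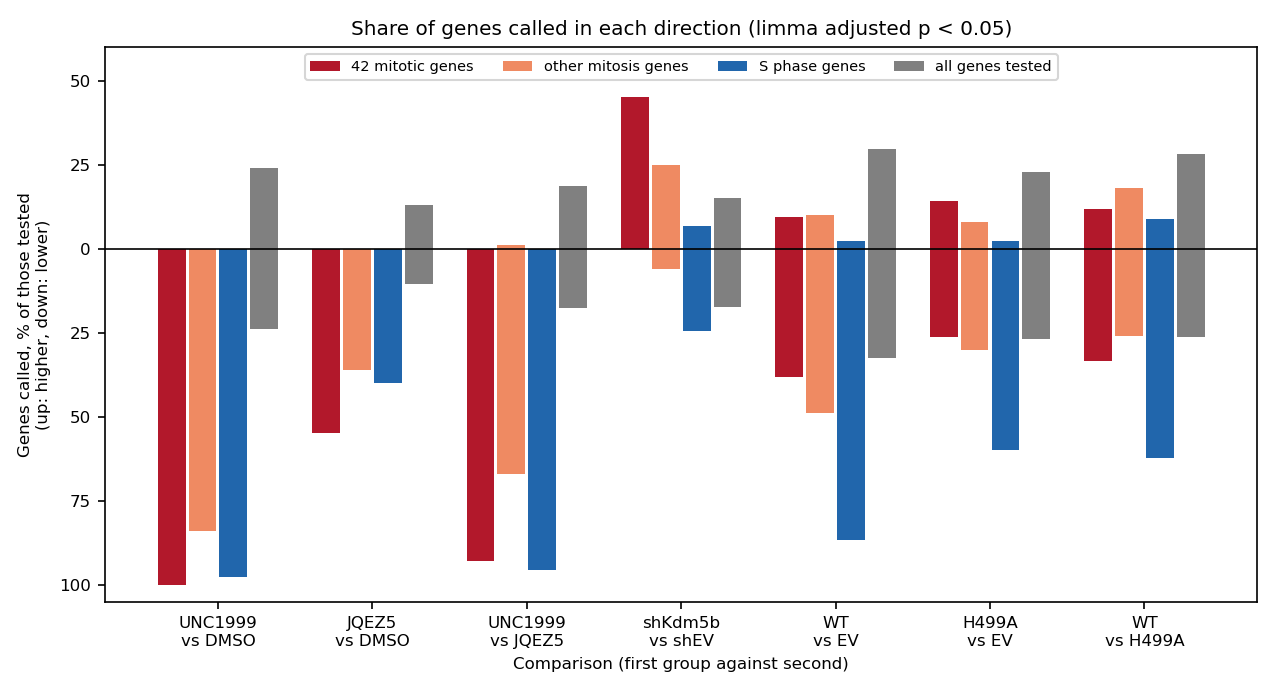
Bars give the percentage of tested genes called higher (up) or lower (down) in each of the 7 comparisons, for the 42 mitotic genes, other mitosis genes, S phase genes and all genes tested. All 42 mitotic genes are lower with UNC1999, none is lower with shKdm5b, and in the MLL-AF9 comparisons the 42 genes have bars in both directions, 38.1% lower and 9.52% higher with WT.

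The 26 genes with TTTGAA in a window and the 8 with a window but without it are set side by side by their median log2 differences. Under UNC1999 the medians were -0.41 and -0.41, under JQEZ5 -0.14 and -0.16, and with shKdm5b 0.16 and 0.18. Between the inhibitors they were -0.24 and -0.29, with WT -0.03 and -0.07, with H499A -0.02 and -0.04, and between WT and H499A -0.02 and -0.04. These medians describe the members and were not tested.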

How the data were processed

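RNA was measured in 21 libraries of 8 groups. Per the submitters' processing notes, reads were handled with mm10 (GRCm38.p4), STAR 2.4.2, Salmon 0.1.19 and DESeq2 1.38.2, and whether counting used strand is not given in the sources used here. The authors deposited log2 values after a variance-stabilising transformation, 1 table for each of 3 experiments. The labels name 2 library kits without saying which made which library. In all, 8 rows whose gene names were repeated spreadsheet dates were left out.

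The transformation was undone with a dispersion worked out from the lowest value in each table, which gave normalised counts and whole reads (100% of values whole at a tolerance of 0.05). A gene was tested if at least as many libraries as the smallest group holds were 1 log2 unit or more above that lowest value (10692, 10808 and 9456 genes for inhibitors, knockdown and overexpression), and all 42 mitotic genes passed in each. The tests were two-sided in limma 3.58.1 in R 4.3.3, with 1 mean per group, eBayes with trend and Benjamini-Hochberg adjustment over all tested genes. In simulated data, 200 genes per experiment were changed, by 0.25 or 0.5 log2 units. The smaller and larger changes were recovered in 69% and 95% of changed genes for UNC1999, 45% and 92% for shKdm5b and 84% and 100% for WT. Far more genes were called in the real data, so these rates may not carry over.

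The genes and lists were chosen with earlier results of these data known. Named are, in each comparison, the called mitotic genes with the 4 largest changes each way, a lead gene per role, those called against the majority, uncalled ones where at most 5, up to 4 called genes per other list, and Foxm1, Mybl2, Cdkn1a, Cdkn2c and Kdm5b. Other genes named were chosen after their values were seen. Motifs were searched in RefSeq promoter windows. Alternatives were another scaling, filter, eBayes setting or scale (voom), a replicate block, fewer groups and leaving out each library.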

Additional observations from a re-analysis of the deposited data

How the results depend on the processing

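Of the 179 called changes of the mitotic genes, none turned direction under the alternatives run. Of the 115 changes not called, 39 changed sign in at least 1 of them, Mki67 with shKdm5b among these (-0.02 log2 units with all libraries, 0.09 without shKdm5b replicate 1, adjusted p = 0.0508). The counts called moved by over 1.5 times only when 1 library was left out. With shKdm5b the number called higher ran from 8 to 29 and the number called lower from 0 to 1. With WT the number called higher ran from 1 to 4. With H499A the number called higher ran from 3 to 6 and the number called lower from 6 to 9. In WT against H499A the number called lower ran from 8 to 12. The cause was not tested, and in the overexpression experiment the lone sample left is assumed to vary like the other groups. Under the other alternatives (scaling, filters, eBayes settings, voom, only the 2 groups compared, replicate block) the number called lower ran from 41 to 42 with UNC1999 and from 19 to 27 with JQEZ5, and the number called higher with shKdm5b from 19 to 22. A filter at 2 log2 units left 41 mitotic genes tested in the inhibitor experiment. The fit of only the groups compared is the main fit for the knockdown, so it gave no further value there.

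Whether replicate numbers pair the libraries could not be decided. Same-numbered libraries correlated in their deviations from -0.08 to 0.16 with the inhibitors, at 0.22, -0.10 and -0.15 in the knockdown, and from -0.05 to -0.01 in the overexpression. Differently numbered libraries ran from -0.19 to 0.18 with the inhibitors and from -0.16 to 0.26 in the knockdown. With 2 libraries per group in the overexpression, deviations mirror each other, so the correlations there cannot show pairing. With the replicate number as a block, 42 genes were called lower with UNC1999, 22 with JQEZ5 and 39 between the inhibitors, 19 higher with shKdm5b, 16 lower and 4 higher with WT, 11 and 6 with H499A, and 14 and 6 between them. Depth limits the rarest genes most, Cdc25c having 45 reads in its lowest library.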
